A study of Mus musculus with 12 samples.

Results

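Oocytes lacking both mitofusins were compared with oocytes lacking only Mfn1, so that the contrast holds Mfn1 loss constant and asks what the loss of Mfn2 adds. The comparison takes 6 of the 12 libraries of the study, 3 labelled Mfn1&2-/- and 3 labelled Mfn1-/-, and every gene in the count table. No WT library entered it. Each library was made from a pool of 50 oocytes at the germinal vesicle stage, taken from unprimed C57BL/6J mice of 21 to 23 days and stripped of their cumulus cells. All 6 pools therefore lack Mfn1, and the pools differ by genotype at Mfn2. The labels write the genotypes as -/- and name no Cre line, and they leave unsaid which pools are of different mice, so the p-values measure the spread between pools, which may be technical. In a pool of oocytes, fewer cells with a transcript and less of it per cell cannot be told apart.

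Mitofusins sit on the surface of mitochondria and use GTP to fuse neighbouring organelles. Mfn2 is also found on the endoplasmic reticulum (ER), where it has been linked to the contacts between ER and mitochondria, and its loss is known to activate ER stress signalling in several tissues. A germinal vesicle oocyte is arrested in prophase of the first meiotic division and builds its mRNA store during growth, and that store supports the first steps of development after transcription stops.

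The 6 libraries held 11830185 to 16024893 counts, and 3 counts corresponded to 0.188 to 0.252 CPM (counts scaled to library size). Mfn2 measured 70.9, 64.5 and 64.8 CPM in the Mfn1-/- pools and 12.1, 10.1 and 10.03 CPM in the Mfn1&2-/- pools, a log2 fold change of -2.63 ± 0.16 (SE, edgeR quasi-likelihood test, adjusted p = 1.47e-06). Mfn1 was low in both groups, with 17.8, 19.0 and 17.8 CPM against 26.1, 19.1 and 14.9 CPM, while the 3 WT pools of the study held 264 to 297 CPM. Both targeted genes thus followed the labels. Summed over 10 oocyte markers, the pools held 9403 to 11231 CPM (Mfn1-/-) and 9468 to 11228 CPM (Mfn1&2-/-). The 13 granulosa markers tested, of 24, summed to 563 to 578 and 557 to 596 CPM, and the granulosa genes Fshr, Amh and Foxl2 were not among the genes tested. Such sums can hide single markers: Inhbb, of the granulosa list, measured 0.23, 5.83 and 17.0 CPM in the Mfn1-/- pools. The 2 tested markers of theca and stroma, of 15, summed to 259 to 333 CPM (Mfn1-/-) and 219 to 313 CPM (Mfn1&2-/-). Myh11 held most of that sum, while Hsd3b1 measured 3.84, 7.47 and 12.5 CPM against 3.08, 2.64 and 1.44 CPM. The 5 tested markers of endothelium, blood and immune cells, of 22, summed to 136 to 158 CPM without Mfn1 alone and 168 to 191 CPM without both. These 2 ranges did not overlap, nor did the pools for 3 of the 5 markers. The 1 marker called, Tie1, fell, against the direction of the sum. The part of such cells in the results was not tested. On principal components of all genes, the first axis (48.1% of the variance) separated the groups, and Mfn1&2-/- replicate 1 stood apart from the other 2 pools of its group on the second (20.4%).

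A limited set of transcripts differed between the Mfn1&2-/- and Mfn1-/- pools, some of them very strongly. Of 11331 genes tested, 512 (4.52%) were called at an adjusted p below 0.05, 245 higher (2.16%) and 267 lower (2.36%) in the Mfn1&2-/- pools. The median fold of the called genes was 2.11, but 130 differed over 4-fold and 43 over 16-fold. Among the 512, 510 had no overlap between the 3 and 3 pools, which held for 26.1% of all genes tested. No overlap therefore adds little to a call, and the genes named below for the largest fold were also chosen by it. The median log2 fold change of all genes was 0.01, which the scaling sets near 0, and it was -0.05 with library size only. Leaving out Mfn1-/- replicate 1 gave 284 calls and leaving out its replicate 2 gave 240. The count was 268 when Mfn1&2-/- replicate 2 was left out, 341 for its replicate 3 and 594 for its replicate 1, the pool that stood apart.

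**Figure D1:**
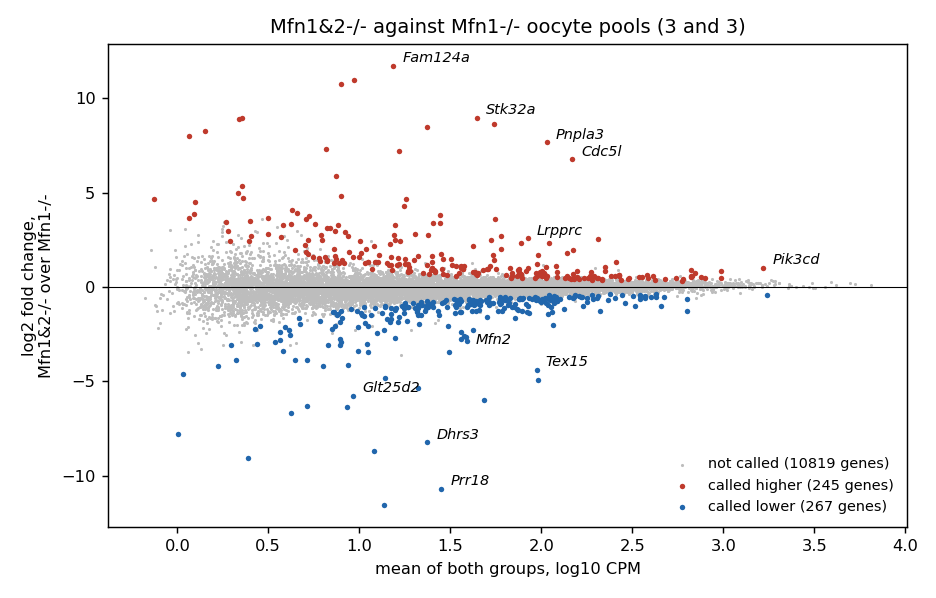
Each point is 1 gene, with the mean level of both groups in log10 CPM on the x axis and the log2 fold change of Mfn1&2-/- over Mfn1-/- pools on the y axis. The 245 genes called higher are red, the 267 called lower are blue, and the 43 called genes past 16-fold lie far from the grey band of genes not called. Where a group has no count, as for Fam124a, the fitted value depends on the prior of the fit and is no measured fold.

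The genes that rose most were nearly silent in oocytes lacking Mfn1 alone. Cdc5l, a core spliceosome factor, measured 3.46, 1.51 and 3.19 CPM in the Mfn1-/- pools and 332, 273 and 271 CPM in the Mfn1&2-/- pools, a log2 fold change of 6.77 ± 0.23 (adjusted p = 2.56e-08). Pnpla3, a lipid droplet hydrolase, went from 1.51, 1.07 and 0.50 CPM to 188, 301 and 149 CPM (7.66 ± 0.35, adjusted p = 2.64e-07). Both had every double knockout pool above every single knockout pool by a wide margin. Cpb2, a plasma carboxypeptidase, rose less, from 13.7, 12.5 and 11.9 CPM to 43.7, 37.7 and 48.3 CPM (1.77 ± 0.18, adjusted p = 0.000102). The promoters of Cdc5l and Cpb2 are printed because each holds the palindrome TGACGTCA, the full cAMP response element, in capitals below. The stretches lie before the start and outside GENCODE exons and the RefSeq span of the gene.
Cdc5l: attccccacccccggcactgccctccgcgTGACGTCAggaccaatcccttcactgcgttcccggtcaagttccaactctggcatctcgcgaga
Cpb2: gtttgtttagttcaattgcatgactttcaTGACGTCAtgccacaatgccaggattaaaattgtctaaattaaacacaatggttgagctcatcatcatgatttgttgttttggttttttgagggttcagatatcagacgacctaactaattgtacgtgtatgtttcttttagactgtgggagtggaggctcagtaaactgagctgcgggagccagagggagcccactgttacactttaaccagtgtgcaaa
The Cdc5l stretch is chr17:45433738-45433830 on the minus strand and the Cpb2 stretch chr14:75242037-75242286 on the plus strand (RefSeq, GRCm38.p6). The element begins 94 bases before the Cdc5l start and 221 before the Cpb2 start. Of the called genes with a promoter entry, it lay within 250 bases before a start, on either strand, in 10 of 175 genes called higher (5.71%) and in 1 of 201 called lower (0.498%), and in 297 of 9123 tested genes (3.26%). The other 8 genes called higher that hold it were Pnpla3, where it runs across the start of the RefSeq gene span, Cds1, Dusp1, Flt1, Klhl12, Mapk10, Msi2 and Tenm3. It was 1 of 8 motifs searched and was singled out after the shares were seen, and a match describes letters in a window, not a bound site.

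Further, 19 called genes crossed between off and on, with a group mean below 0.5 CPM on one side and at least 5 CPM on the other. The 11 genes that came on were Stk32a, Cacna1s, Btla, Fam124a, Tnr, 4931408C20Rik, Nfam1, Zbtb7c, Tox3, Lrmp and Dusp4. Fam124a had no count in the 3 Mfn1-/- pools and 31.8, 20.8 and 39.8 CPM in the Mfn1&2-/- pools, at least 415-fold higher when 3 counts are granted to the silent group. Nfam1, an immune receptor with an activation motif, had no count against 8.65, 28.2 and 19.1 CPM, at least 266-fold higher. Tnr, an extracellular matrix protein of the nervous system, had no count against 9.23, 16.2 and 22.2 CPM, at least 220-fold higher. For these 3 genes the groups did not approach each other in any pool. Stk32a, a serine/threonine kinase, measured 0.53, 0 and 0 CPM against 89.9, 85.9 and 90.8 CPM. Cacna1s, the calcium channel subunit of skeletal muscle, measured 0.23, 0.44 and 0.08 CPM against 66.2, 174 and 86.7 CPM. Btla, an inhibitory receptor of lymphocytes, measured 0.30, 0 and 0.08 CPM against 34.3, 37.5 and 69.6 CPM. For each of these 3 genes too, the lowest double knockout pool lay far above the highest single knockout pool. The log2 fold changes of Stk32a, Cacna1s and Btla were 8.95 ± 0.46, 8.63 ± 0.51 and 8.49 ± 0.54 (adjusted p up to 1.92e-06). Tox3, a chromatin factor with an HMG box, held 3 counts over the Mfn1-/- pools and 521 over the Mfn1&2-/- pools, a ratio of 177 with a 95% counting interval of 60.3 to 861. Zbtb7c, a zinc finger repressor, rose by 5.90 ± 0.64 on the log2 scale, Acsf2, a mitochondrial acyl-CoA synthetase, by 4.83 ± 0.40, and the receptor phosphatase gene Ptprv by 4.64 ± 0.55.

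Of the 11 genes that came on, 7 have a promoter entry, and 2 of these (28.6%) hold at least 10 CG dinucleotides in the 250 bases before a start, against 7117 of 9123 tested genes (78.0%). Of the genes that went off, named below, 6 have a promoter entry and 2 of these (33.3%) reach that number. The low share is thus not particular to the genes that came on. Among all genes called higher over 4-fold the share was 26 of 55 (47.3%), and among those called lower over 4-fold it was 29 of 47 (61.7%). Cacna1s and Fam124a are printed to show the poor and the rich kind, with each CG in capitals and bases of annotated exons left out.
Cacna1s: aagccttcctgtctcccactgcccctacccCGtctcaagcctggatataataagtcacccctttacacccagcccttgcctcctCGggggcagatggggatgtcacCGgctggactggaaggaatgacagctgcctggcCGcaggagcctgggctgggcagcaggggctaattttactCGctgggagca
Fam124a: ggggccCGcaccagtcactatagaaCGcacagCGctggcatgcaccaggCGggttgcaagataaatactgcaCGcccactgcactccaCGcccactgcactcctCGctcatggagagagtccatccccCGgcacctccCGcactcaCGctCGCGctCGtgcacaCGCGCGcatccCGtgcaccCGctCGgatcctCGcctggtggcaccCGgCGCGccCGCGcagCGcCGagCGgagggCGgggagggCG
The Cacna1s stretch (chr1:136052561-136052749, plus strand) holds 5 CG dinucleotides and the Fam124a stretch (chr14:62555487-62555736, plus strand) holds 30. The stretches differ in length, at 189 and 250 bases. The full 250 bases before the Cacna1s start hold 9, just below the limit of 10, so Cacna1s is a borderline case of the poor kind. Both genes had under 0.5 CPM in each Mfn1-/- pool, so the 2 kinds of promoter occur among the genes that came on.

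The 8 genes that went off were Prr18, Dhrs3, 4930562C15Rik, Prr15l, 7420700N18Rik, Glt25d2, Pramef17 and Tie1. Prr18, which codes for a proline-rich protein, measured 51.6, 57.6 and 60.1 CPM in the Mfn1-/- pools and 0.08, 0 and 0 CPM in the Mfn1&2-/- pools. A single count remained against 2319, a ratio of 2274 with a 95% counting interval of 408 to 89866. Dhrs3, which reduces retinaldehyde and so limits retinoic acid formation, fell from 56.7, 45.1 and 39.4 CPM to 0, 0.13 and 0.30 CPM (-8.22 ± 0.42, adjusted p = 5.1e-07). Almost nothing of either transcript was left in any double knockout pool. Prr15l held 980 counts against 2, a ratio of 481 (133 to 3974), and Tie1, an endothelial receptor kinase, 350 against 3, a ratio of 114 (38.8 to 557). Glt25d2, a collagen galactosyltransferase now named Colgalt2, fell from 19.1, 14.9 and 20.3 CPM to 0.83, 0.13 and 0.08 CPM (-5.74 ± 0.56, adjusted p = 7.98e-05). Pramef17 fell from 5.72, 9.60 and 15.4 CPM to 0, 0.26 and 0.08 CPM, with the limit that it belongs to a multigene family whose reads the counting may split. Without being switched off by these limits, Extl1, a heparan sulphate glycosyltransferase, fell by 5.35 ± 0.46 on the log2 scale, Slc39a8, a zinc and manganese importer, by 4.84 ± 0.84, and Rnaset2b, which has a near-identical copy, by 3.85 ± 0.43. Tnfsf11, the cytokine RANKL, measured 16.2, 12.9 and 20.4 CPM against 0, 2.64 and 0 CPM (-4.13 ± 0.90, adjusted p = 0.0234). Slc7a8, an amino acid transporter, measured 7.75, 8.54 and 8.81 CPM against 0, 1.58 and 0 CPM (-3.88 ± 0.93, adjusted p = 0.0358). The Tnfsf11 call was lost without any one Mfn1-/- pool (adjusted p up to 0.0801), and the Slc7a8 call also without Mfn1&2-/- replicate 3 (up to 0.12).

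**Figure D2:**
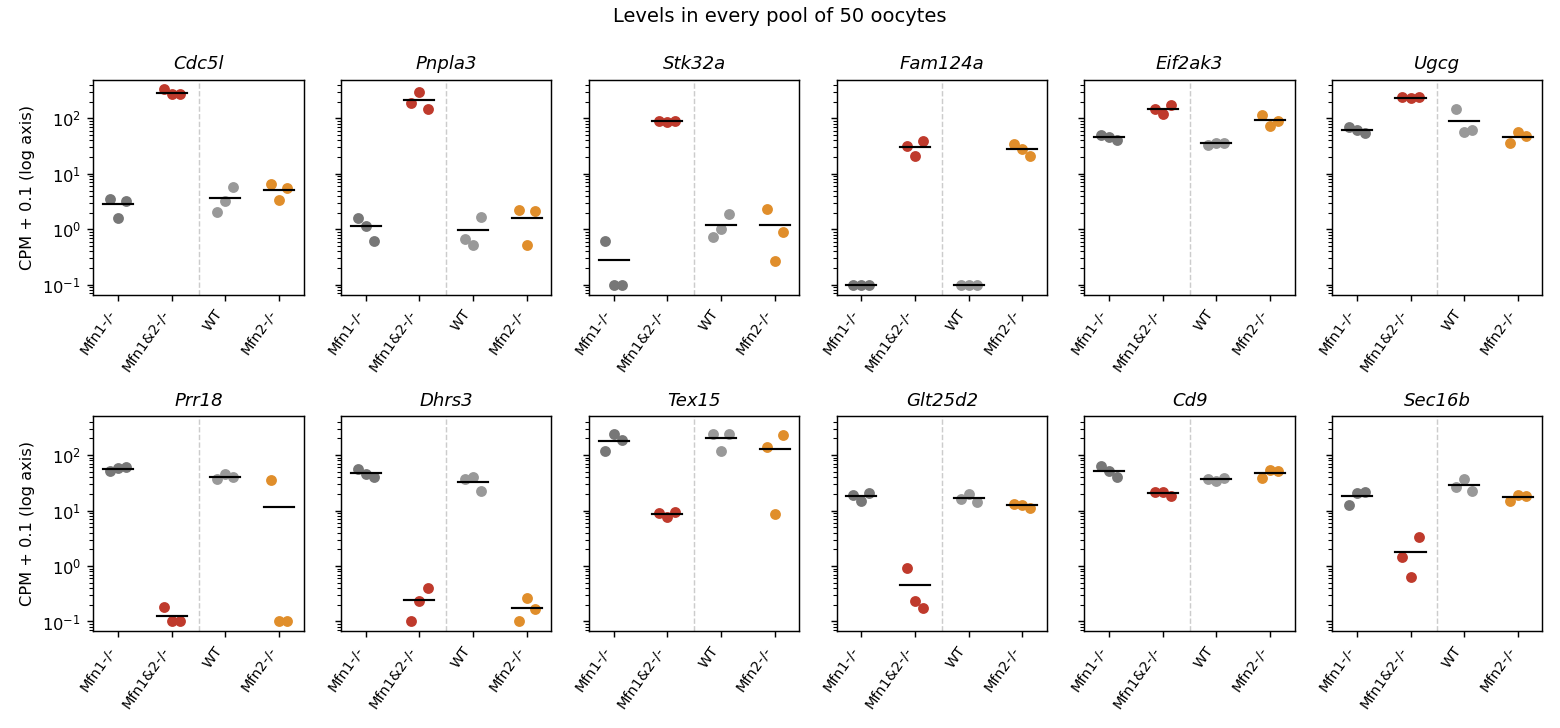
Points are the CPM of each pool plus 0.1, on a log axis, for 12 genes in the 4 groups of the study, and lines are group means; the dashed line divides the comparison described here from the pools with intact Mfn1. Cdc5l, Pnpla3 and Stk32a are high in the 3 Mfn1&2-/- pools alone, whereas Fam124a is high, and Dhrs3 low, in the Mfn2-/- pools as well.

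Calls were next read by 27 gene lists. Of 935 distinct list members tested, 42 (4.49%) were called, 20 higher and 22 lower, against 4.52% of all genes, so the lists together were called about as often as the rest of the transcriptome. For the counts given below by other measures, 2250 of all 11331 genes tested had an unadjusted p below 0.05 in edgeR, and the DESeq2 Wald test called 943 genes. The 31 tested genes of mitochondrial fusion and fission gave 2 calls (6.45%, against 4.52% of all genes), 1 of them Mfn2. The other, Mtfr1l, a regulator of fission, fell from 76.1, 59.2 and 85.7 CPM to 39.2, 43.1 and 46.8 CPM (-0.77 ± 0.16, adjusted p = 0.0183). The 36 genes of ER-mitochondria contact and calcium gave 3 calls (8.33%). Rmdn3 (PTPIP51), an outer membrane tether to the ER, fell from 56.2, 60.01 and 51.4 CPM to 32.9, 31.8 and 29.6 CPM (-0.83 ± 0.14, adjusted p = 0.00696). Hspa9 (mortalin), the matrix chaperone that links VDAC to the IP3 receptor, fell by 0.51 ± 0.11 on the log2 scale (adjusted p = 0.0244). Both fall in the group that couples the 2 organelles, and, as in nearly all called genes, the pools overlapped in neither. Ccdc109b (Mcub), the inhibitory subunit of the calcium uniporter, measured 15.3, 15.3 and 16.4 CPM against 121, 17.8 and 131 CPM (2.52 ± 0.52, adjusted p = 0.0191), so that Mfn1&2-/- replicate 2 sat close to the Mfn1-/- pools. The Mtfr1l call was lost without Mfn1-/- replicate 1 or 3 or Mfn1&2-/- replicate 2 (adjusted p up to 0.0709), that of Hspa9 without Mfn1-/- replicate 1 or 2 or Mfn1&2-/- replicate 2 or 3 (up to 0.105), and that of Ccdc109b without any one Mfn1-/- pool or Mfn1&2-/- replicate 3 (up to 0.102).

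Among 37 genes of mitochondrial DNA maintenance and expression, 2 rose. Lrpprc, which stabilises mitochondrial mRNAs, went from 24.1, 21.5 and 27.0 CPM to 135, 125 and 173 CPM (2.58 ± 0.16, adjusted p = 1.47e-06). With Mfn1 intact, Lrpprc measured 25.1, 23.5 and 127 CPM in WT and 82.7, 86.1 and 90.1 CPM in Mfn2-/- pools. WT replicate 3, with intact Mfn2, was thus as high as the double knockout pools. Mterfd2 (Mterf4), a factor of mitochondrial ribosome assembly, went from 162, 166 and 167 CPM to 200, 217 and 232 CPM (0.39 ± 0.10, adjusted p = 0.0414). The list's median log2 fold change was -0.17 and its members ranged from -1.91 to 2.58. An unadjusted p below 0.05 was found for 9 of the 37, against 2250 of all 11331 genes tested. The Mterfd2 call held only when Mfn1&2-/- replicate 1 was the pool left out, and was lost without any other (adjusted p up to 0.147).

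No gene was called among 77 subunits of oxidative phosphorylation, 30 mitochondrial import genes or 31 genes of pyruvate dehydrogenase and the citric acid cycle. In edgeR 4, 0 and 1 of them had an unadjusted p below 0.05, and DESeq2 also called 0, 0 and 0. The medians of the 3 lists were 0.05, 0.02 and -0.03 on the log2 scale. The oxidative phosphorylation gene with the smallest p was Cox5b, a subunit of cytochrome c oxidase, at 64.4, 51.6 and 62.9 CPM against 75.0, 80.0 and 71.8 CPM (0.34 ± 0.13, adjusted p = 0.176). Nor did edgeR call a member of the mitophagy and autophagy list (46 tested, 5 with an unadjusted p below 0.05, 1 called by DESeq2), of apoptosis (26, 5 and 2) or of maternal effect genes (38, 3 and 2). The 76 cytosolic ribosomal protein genes gave 0 calls in edgeR, 5 unadjusted and 2 by DESeq2, with a median of 0.09; many have pseudogene copies that can share reads.

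The integrated stress response list gave 3 calls among 29 genes tested (10.3%, against 4.52% of all genes), all higher. Eif2ak3 (PERK), the ER kinase that phosphorylates eIF2 alpha, rose from 49.5, 46.1 and 41.1 CPM to 146, 120 and 176 CPM (1.69 ± 0.15, adjusted p = 4.28e-05). Vldlr, a lipoprotein receptor, went from 3.76, 4.39 and 2.43 CPM to 9.73, 11.7 and 12.2 CPM (1.66 ± 0.32, adjusted p = 0.0131). Ddit4 (REDD1), an inhibitor of mTORC1 that is induced by stress, went from 34.6, 32.0 and 33.6 CPM to 46.8, 52.6 and 62.9 CPM (0.70 ± 0.15, adjusted p = 0.026). As in nearly all genes called higher, the 9 double knockout values of these 3 genes lay above the single knockout values of the same gene. The list's median was 0.15, against 0.01 over all genes. None of the 32 genes of the ER unfolded protein response was called by edgeR, 5 had an unadjusted p below 0.05 and DESeq2 called 2. Manf, a secreted ER stress factor, was nearest, at 61.3, 61.7 and 71.8 CPM against 96.6, 94.4 and 77.2 CPM (0.46 ± 0.13, adjusted p = 0.0759). The next 2 members by p went the other way: Edem3 (-0.43 ± 0.13, adjusted p = 0.0792) and Creld2 (-0.27 ± 0.10, adjusted p = 0.158). The median of this list was 0.03. The Vldlr call was lost without Mfn1&2-/- replicate 2 (adjusted p = 0.0543), and the Ddit4 call without any one pool but Mfn1&2-/- replicate 1 (up to 0.106).

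In lipid metabolism, 2 enzymes that use ceramide moved in opposite directions. Ugcg, which makes glucosylceramide, rose from 70.6, 60.6 and 53.4 CPM to 239, 230 and 239 CPM (1.94 ± 0.12, adjusted p = 1.47e-06). Sgms1, which makes sphingomyelin, fell from 71.4, 62.9 and 52.5 CPM to 28.4, 20.6 and 28.1 CPM (-1.28 ± 0.18, adjusted p = 0.00162). These were the only calls among the 29 sphingolipid genes tested, and each held without any one pool. Of 40 cholesterol and lipid droplet genes, Pnpla3 and Sc5d rose and Nceh1 fell (7.5% called). Sc5d, a desaturase late in cholesterol synthesis, rose by 0.80 ± 0.15 on the log2 scale (adjusted p = 0.00924), and Nceh1, a cholesteryl ester hydrolase, fell by 0.60 ± 0.10 (adjusted p = 0.00484). Among 29 antioxidant genes, 1 fell and 1 rose (6.9% called). Txnrd1, thioredoxin reductase, fell from 223, 240 and 262 CPM to 136, 157 and 197 CPM (-0.56 ± 0.13, adjusted p = 0.0326). The glutaredoxin Glrx2 went from 0.68, 0.19 and 1.17 CPM to 2.58, 6.20 and 4.41 CPM (2.71 ± 0.68, adjusted p = 0.0438). Of 21 glycolysis genes, 1 was called (4.76%): Pfkfb3, which makes the activator of phosphofructokinase, fell by 0.79 ± 0.18 (adjusted p = 0.0311). The Txnrd1 call held only when Mfn1&2-/- replicate 3 was left out (adjusted p up to 0.114 without another), the Glrx2 call was lost without Mfn1-/- replicate 1 or 2 or Mfn1&2-/- replicate 2 or 3 (up to 0.163), and the Pfkfb3 call without Mfn1-/- replicate 1 or 2 or Mfn1&2-/- replicate 2 (up to 0.131).

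Genes of the oocyte itself changed in both directions. Of 33 genes of oocyte identity and growth factors, 5 were called (15.2%, against 4.52% of all genes), 2 higher and 3 lower. Cd9, the tetraspanin of the egg surface needed for sperm fusion, fell from 63.9, 51.1 and 40.2 CPM to 21.1, 21.5 and 18.5 CPM (-1.34 ± 0.19, adjusted p = 0.00175). Folr4 (Juno), the egg receptor for sperm Izumo1, rose from 79.4, 78.7 and 84.0 CPM to 110, 125 and 132 CPM (0.60 ± 0.11, adjusted p = 0.0121). The 2 proteins act at the same surface, and their transcripts went opposite ways. Oog3, an oocyte gene of the Prame family with near-identical relatives, rose by 0.59 ± 0.11 on the log2 scale, and Ddx4 (VASA), a germ cell RNA helicase, fell by 0.65 ± 0.14. Dazl, a germ cell translation regulator, was the other gene called lower, at 416, 448 and 412 CPM against 193, 286 and 340 CPM (-0.64 ± 0.16, adjusted p = 0.0489). Of 50 genes of meiotic arrest and maturation, 2 fell and none rose (4% called, against 4.52% of all genes). Gpr3, the receptor that keeps cAMP high and the oocyte arrested, went from 51.1, 50.5 and 37.2 CPM to 26.7, 19.9 and 19.3 CPM (-1.08 ± 0.19, adjusted p = 0.00886). Prkacb, a catalytic subunit of the cAMP-dependent kinase, went from 41.8, 45.0 and 44.0 CPM to 23.0, 29.5 and 30.7 CPM (-0.65 ± 0.16, adjusted p = 0.0439). Both act in the same cAMP pathway, but their list was called no more often than all genes. As in nearly all genes called lower, the 3 lower values of Gpr3 and of Prkacb are the double knockout pools. The Gpr3 call was lost without Mfn1-/- replicate 2 (adjusted p = 0.0516), the Oog3 call without Mfn1&2-/- replicate 2 (0.0548), the Prkacb call without any one pool (up to 0.133), the Folr4 call without Mfn1-/- replicate 2 or Mfn1&2-/- replicate 2 or 3 (up to 0.0638), and the Ddx4 call without Mfn1-/- replicate 1 or 2 or Mfn1&2-/- replicate 3 (up to 0.0761). The Dazl call was lost without any one Mfn1-/- pool or Mfn1&2-/- replicate 2 (up to 0.157).

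Of 55 genes of maternal mRNA storage and decay, 4 rose and 1, Dazl, fell. Btg4, the adaptor that brings the deadenylase to maternal mRNA, rose from 599, 707 and 675 CPM to 955, 888 and 962 CPM (0.50 ± 0.09, adjusted p = 0.0112), and Cnot7, a deadenylase subunit, from 270, 326 and 359 CPM to 497, 443 and 411 CPM (0.50 ± 0.12, adjusted p = 0.0342). Cpeb1, which controls cytoplasmic polyadenylation, rose by 0.34 ± 0.09 on the log2 scale, and Msi2, an RNA-binding translation regulator, by 1.62 ± 0.41. The Btg4 call held without any one pool, whereas the Cpeb1 call was lost without any one (adjusted p up to 0.144), and those of Cnot7 (up to 0.103) and Msi2 (up to 0.149) were lost without 4 of the 6 in turn: Mfn1-/- replicates 1 and 2 and Mfn1&2-/- replicate 2 for both, with Mfn1&2-/- replicate 1 for Cnot7 and replicate 3 for Msi2.

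Transposon silencing and the piRNA pathway gave 5 calls among 33 genes tested (15.2%, against 4.52% of all genes), 4 lower and 1 higher. Tex15, which directs methylation of transposons in the germ line, fell from 117, 237 and 187 CPM to 9.07, 7.45 and 9.20 CPM (-4.40 ± 0.25, adjusted p = 9.22e-07). Henmt1, the methyltransferase that protects the end of piRNAs, fell from 115, 93.7 and 104 CPM to 31.9, 52.5 and 48.8 CPM (-1.23 ± 0.18, adjusted p = 0.00198). Piwil2, a protein that binds piRNAs, measured 36.8, 18.5 and 21.0 CPM against 5.24, 12.8 and 11.02 CPM (-1.38 ± 0.34, adjusted p = 0.0426), and Ddx4 fell as given above. Mael, a factor of the piRNA pathway, went the other way, from 50.8, 53.1 and 59.8 CPM to 77.7, 84.6 and 87.1 CPM (0.61 ± 0.13, adjusted p = 0.019). The list's median log2 fold change was 0.04, and 13 of the 33 had an unadjusted p below 0.05, against 2250 of all 11331 genes tested. The Piwil2 call was lost without any one pool (adjusted p up to 0.188), and the Mael call without Mfn1-/- replicate 1 or 2 or Mfn1&2-/- replicate 2 or 3 (up to 0.0868).

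Among 58 genes of vesicle transport, Sec16b, which organises ER exit sites, fell from 12.3, 20.4 and 21.5 CPM to 1.33, 0.53 and 3.27 CPM (-3.41 ± 0.51, adjusted p = 0.00259). Vamp3, a SNARE of recycling endosomes, fell by 1.12 ± 0.23 on the log2 scale, Arf4, a GTPase of the Golgi, fell by 1.32 ± 0.33, and Copa, a coatomer subunit, rose by 0.41 ± 0.09. Of 49 PI3K and mTOR genes, 1 was called (2.04%): Pik3cd, a catalytic subunit of PI3-kinase, rose from 1132, 1052 and 1096 CPM to 2262, 2236 and 2202 CPM (1.03 ± 0.08, adjusted p = 1.92e-05). The rise in Pik3cd was tight, with the 3 pools of each group within a narrow band. Among 33 adhesion genes, Cd9 and Ocln (occludin) fell and Notch2 rose (9.09% called). Kitl, the Kit ligand, a granulosa product, fell from 7.30, 13.3 and 10.2 CPM to 3.91, 3.36 and 4.94 CPM (-1.34 ± 0.33, adjusted p = 0.0433), while the summed granulosa markers overlapped as given above. The Notch2 call was lost without any one pool (adjusted p up to 0.159), the Copa (up to 0.119), Arf4 (up to 0.181) and Ocln (up to 0.134) calls without any but Mfn1&2-/- replicate 1, the Kitl call without any but Mfn1-/- replicate 1 (up to 0.185), and the Vamp3 call without Mfn1-/- replicate 2 or 3 or Mfn1&2-/- replicate 2 (up to 0.0888).

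**Figure D3:**
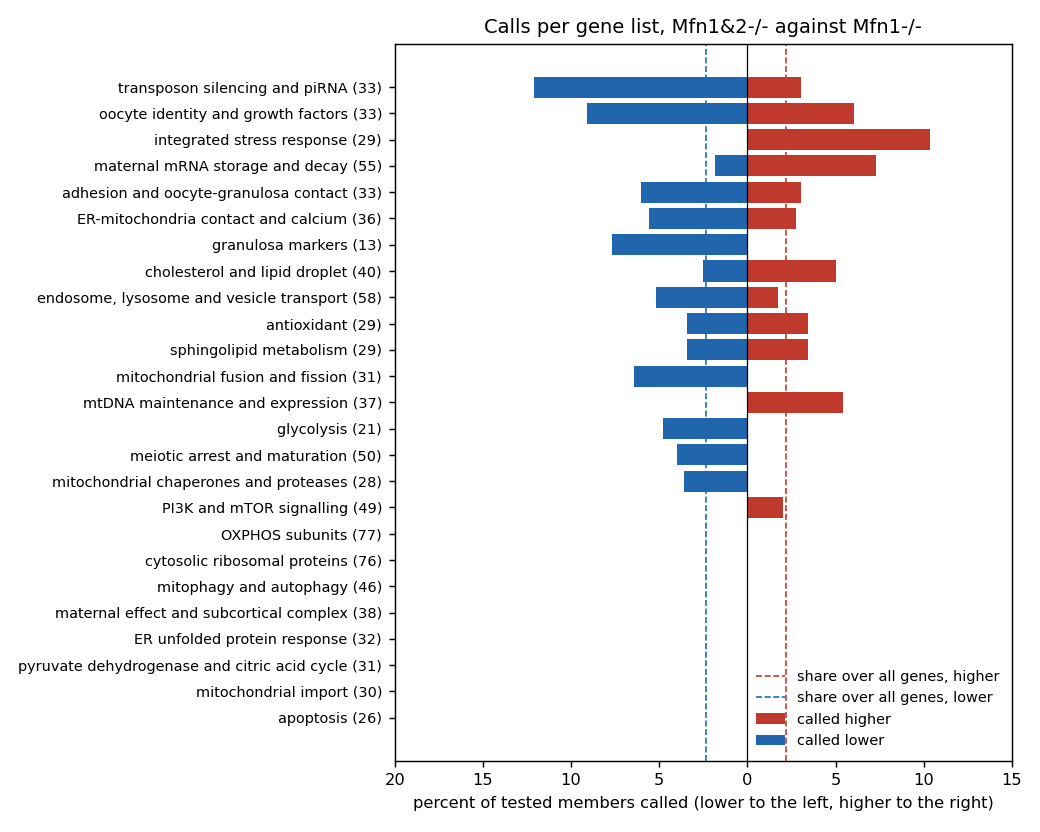
Bars give the percent of the tested members of each list (number tested in parentheses, lists of 10 or more) called higher, to the right, or lower, to the left, in Mfn1&2-/- against Mfn1-/- pools, and dashed lines the shares over all genes (2.16% higher, 2.36% lower). Calls in the integrated stress response all point higher, the piRNA and oocyte lists hold calls in both directions, and 8 lists hold none.

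Mfn2 lies on chromosome 4, and genes near it were called more often than genes elsewhere. Within 5 Mb of it, 18 of 83 located and tested genes (21.7%) were called, 10 higher and 8 lower. The share did not decline steadily with distance: it was 5 of 79 (6.33%) from 5 to 10 Mb, 14 of 120 (11.7%) from 10 to 20 Mb, 12 of 152 (7.89%) from 20 to 40 Mb and 17 of 301 (5.65%) beyond. Within 20 Mb, 37 of 282 genes (13.1%) were called, against 471 of 10988 elsewhere (4.29%). Several genes described above lie in this interval: Pik3cd at 1.79 Mb and Vamp3 at 3.16 Mb on one side, and Dhrs3 at 2.98 Mb, Oog3 at 3.73 Mb, Pramef17 at 3.90 Mb, Mtfr1l at 13.4 Mb, Extl1 at 13.5 Mb and Gpr3 at 14.7 Mb on the other. Within 10 Mb, 23 of 162 genes (14.2%) were called around Mfn2 and 1 of 56 (1.79%) around Mfn1 on chromosome 3. The groups share the Mfn1 genotype. With only 56 genes, the share around Mfn1 cannot be told from the 4.51% of all located genes, so nothing is concluded from it. Whether DNA around the Mfn2 allele differs between the groups was not tested. The count within 20 Mb was 21 without Mfn1-/- replicate 2 and 19 without Mfn1&2-/- replicate 2.

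**Figure D4:**
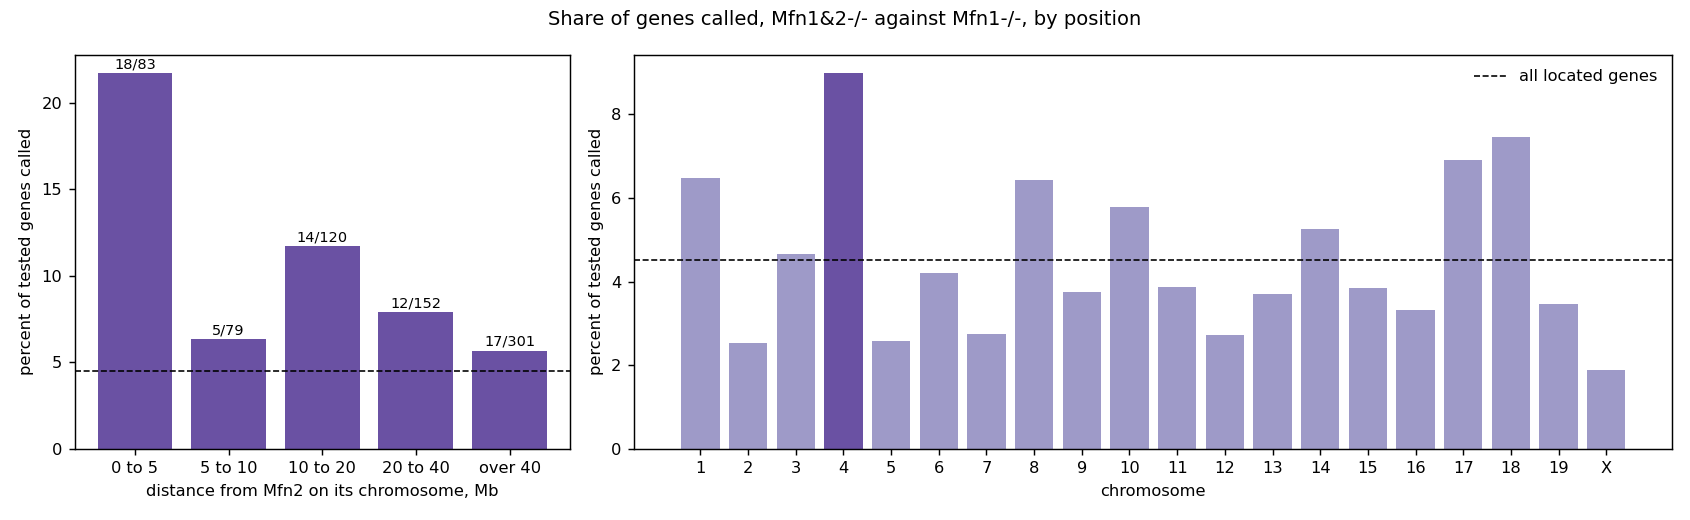
The left bars give the percent of tested genes called by distance from Mfn2 on its chromosome (called over tested above each bar), the right bars the percent for each chromosome, with chromosome 4 dark, and the dashed line the share of all located genes (4.51%). The share is highest within 5 Mb of Mfn2 (21.7%), and chromosome 4 (8.98%) has the highest share of the 20 chromosomes shown.

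The Mfn2-/- and WT pools, which share no library with the 6 used so far, show the same loss with Mfn1 intact. There 1196 of 11338 genes (10.5%) were called, 458 higher (4.04%) and 738 lower (6.51%). Of the 501 double knockout calls also tested there, 136 (27.1%) were called in the same direction, Mfn2 itself included, 4 in the opposite direction, and 361 were not called. The 136 make up 11.5% of the 1181 Mfn2-/- calls tested in both. The sign was shared by 78.2% of the 501, against 53.3% of all 11288 genes tested in both. Within 20 Mb of Mfn2, 18 of 37 calls were also called there in the same direction, and elsewhere 116 of 471. The 136 fell to 80 without Mfn1-/- replicate 2 and 88 without Mfn1&2-/- replicate 2.

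Several switches occurred with or without Mfn1. Fam124a had no count in the WT pools and measured 34.7, 28.5 and 20.7 CPM in the Mfn2-/- pools, so it was silent in all 6 pools with Mfn2 and present in all 6 without. Btla measured 0, 0.17 and 0.42 CPM in WT and 96.1, 92.9 and 87.1 CPM in Mfn2-/- pools (8.83 ± 0.36, adjusted p = 2.13e-07). Dhrs3 measured 36.3, 40.4 and 22.3 CPM against 0, 0.17 and 0.07 CPM (-8.67 ± 0.50, adjusted p = 5.02e-06). Tie1, Zbtb7c, Eif2ak3 (1.38 ± 0.17), Pik3cd (0.79 ± 0.09), Henmt1 (-1.46 ± 0.18) and Ddit4 (1.14 ± 0.16) were also called there in the same direction. So were Prr15l, Acsf2, Ptprv, Extl1, Slc39a8, Vldlr, Folr4, Oog3, Notch2 and Cpeb1. Ccdc109b (2.47 ± 0.23), Txnrd1 (-0.94 ± 0.11) and Pfkfb3 (-0.94 ± 0.16), whose calls above were lost without single pools, were called there the same way too. For none of these named genes was the difference between the 2 effects called, which does not show that the effects are equal. Dhrs3, Pik3cd, Oog3 and Extl1 lie within 20 Mb of Mfn2, and Tie1 on the same chromosome. Both comparisons differ at Mfn2, and whether DNA around its allele differs as well was not tested. Other genes that came on varied between pools of the same genotype. Tox3 measured 0.40, 1.26 and 12.4 CPM in WT and 14.9, 27.9 and 25.6 CPM in Mfn2-/- pools. Tnr measured 0, 0 and 3.51 CPM in WT and 2.20, 7.97 and 7.16 CPM in Mfn2-/- pools. Cacna1s measured 0 CPM in each WT pool and 0, 41.4 and 72.4 CPM in the Mfn2-/- pools.

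**Figure D5:**
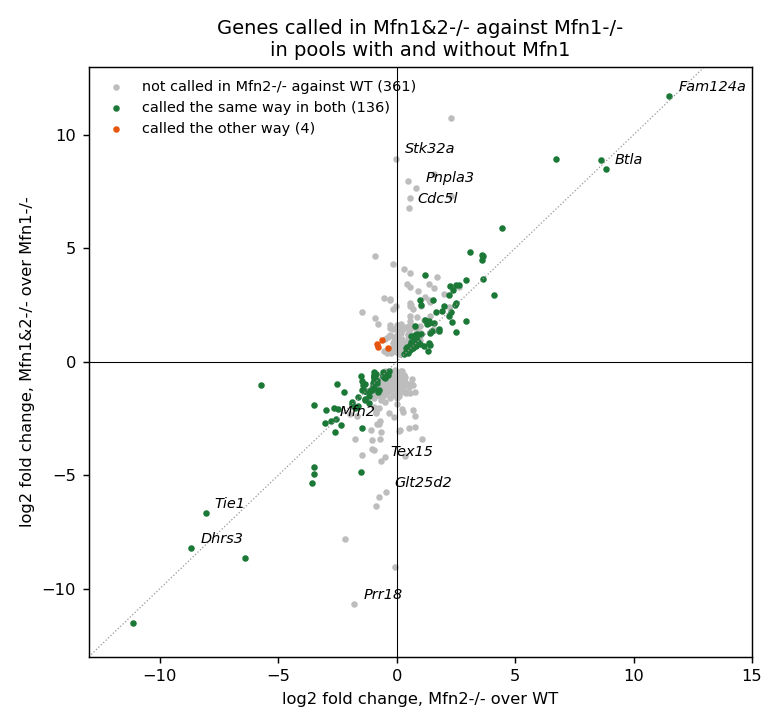
Each point is 1 of the 501 genes called in Mfn1&2-/- against Mfn1-/- and tested in both comparisons, with its log2 fold change in Mfn2-/- over WT pools on the x axis and in Mfn1&2-/- over Mfn1-/- pools on the y axis; the dotted line marks equal values, and values of genes without counts in a group depend on the prior of the fit. Fam124a, Btla, Dhrs3 and Tie1 lie near that line, while Stk32a, Pnpla3, Cdc5l and Glt25d2 lie near the vertical axis.

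The difference between the 2 Mfn2 effects was tested over all 12 pools with an interaction contrast, which called 470 of 11385 genes (4.13%). Of the 512 double knockout calls, 85 (16.6%) were among them; this test shares its libraries with the calls. Cdc5l measured 1.92, 3.12 and 5.68 CPM in WT and 6.45, 3.24 and 5.48 CPM in Mfn2-/- pools, so that its rise was larger without Mfn1 by 6.25 ± 0.48 on the log2 scale (adjusted p = 8.66e-06). Pnpla3 stayed between 0.42 and 2.13 CPM in all 6 pools with intact Mfn1 (difference 6.80 ± 0.86, adjusted p = 0.000845), and Stk32a between 0.17 and 2.26 CPM (8.93 ± 1.02, adjusted p = 0.000319). These 3 genes were thus high in the pools that lack both mitofusins and in none of the other 9. Glt25d2 measured 16.2, 20.1 and 14.4 CPM against 12.9, 12.7 and 11.2 CPM with Mfn1 intact (difference -5.28 ± 0.58, adjusted p = 0.00026). Ugcg measured 145, 56.9 and 61.9 CPM against 36.5, 55.8 and 48.8 CPM (2.85 ± 0.38, adjusted p = 0.00107), and Cd9 measured 36.8, 34.5 and 38.4 CPM against 38.8, 53.7 and 51.2 CPM (-1.73 ± 0.25, adjusted p = 0.00244). Each of these 6 differences was called without any one of the 12 pools. Tex15 measured 244, 119 and 241 CPM in WT and 142, 8.46 and 231 CPM in Mfn2-/- pools, so that 1 Mfn2-/- pool was as low as the double knockout pools (difference -3.73 ± 0.94, adjusted p = 0.0402). That difference was called when this pool, Mfn2-/- replicate 2, was left out (adjusted p = 0.000163), and not when any one of the other 11 was (up to 0.0997). Prr18 measured 34.9, 0 and 0 CPM in the Mfn2-/- pools, so that 2 of them were as low as the double knockout pools, and its difference was not called (adjusted p = 0.0583).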

How the data were processed

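RNA from 12 pools of oocytes (4 genotypes, 3 pools each) was converted to libraries with a strand-keeping total RNA kit and read as pairs, per the labels' protocols. Quality control with FastQC 0.11.7, alignment software STAR 2.7.0a, the mm10 build and edgeR are listed, per the submitters' processing notes. Not given in the sources used here: the annotation, the counter, and how it treated strand and reads with several matches. The deposited values were whole-number counts per gene for 11385 genes. The authors also deposited a normalised signal (CPM), which equalled the TMM-scaled CPM computed from the counts and was used only for that check.

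Counts of the 6 pools were scaled by TMM, filtered with filterByExpr (54 genes left out) and tested with edgeR 4.0.16 (quasi-likelihood, 4 residual degrees of freedom, R 4.3.3) with Benjamini-Hochberg adjustment over all genes tested; a gene is called at an adjusted p below 0.05. Printed CPM are TMM-scaled. Mfn2-/- against WT was fitted separately in the same way, and the difference of the 2 effects over all 12 pools (8 residual degrees of freedom). The alternatives were DESeq2 1.42.0, limma 3.58.1 (voom), other scaling, filters and fold thresholds, a replicate block and leaving out each pool. Counting intervals (95%) and the 3-count floor cover counting error only. Of 11385 symbols, 11324 (99.5%) were located on GRCm38, 730 by an older name, and 376 of the 512 called genes had a RefSeq promoter entry.

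The comparison, the gene lists and the tests were chosen with earlier results of these data known. Named genes are Mfn1 and Mfn2, the 12 called genes with the largest fold in each direction (at least 5 CPM in the higher group, no overlap of pools, predicted genes left out), up to 4 called members of each list with the smallest p, and up to 3 members of a list without calls. Dazl, Piwil2, genes holding TGACGTCA, the printed promoters and the remaining on or off genes were named after their values were seen. Replicate numbers do not pair the pools by the labels.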

Additional observations from a re-analysis of the deposited data

Results flagged for a closer look

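For 17 named genes the Mfn2 genotype difference varied with Mfn1 status by the interaction test over 12 pools (edgeR quasi-likelihood, adjusted p below 0.05). Values are the log2 fold change of Mfn1&2-/- over Mfn1-/- minus that of Mfn2-/- over WT. The difference was 8.93 for Stk32a, 6.80 for Pnpla3, 6.25 for Cdc5l and 2.85 for Ugcg, each higher in the pools lacking both mitofusins. It was -5.28 for Glt25d2, -3.73 for Tex15, -2.78 for Rnaset2b and -2.68 for Sec16b, each lower there. Smaller differences were found for Cd9 (-1.73), Sgms1 (-1.41), Rmdn3 (-1.06), Ocln (-1.01), Prkacb (-0.96) and Mterfd2 (0.66). Leaving out each of the 12 pools in turn, the difference was lost without 11 pools for Tex15 (highest adjusted p = 0.0997), 10 for Sgms1 (0.127), 9 for Prkacb (0.113), 8 for Ocln (0.0902), 3 for Mterfd2 (0.0589) and 1, Mfn1-/- replicate 1, for Rnaset2b (0.0552).

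The other 3 genes were not called in Mfn1&2-/- against Mfn1-/-. Cox5b had a difference of 1.39, with 76.4, 78.0 and 63.6 CPM in WT and 32.4, 37.4 and 36.2 CPM in Mfn2-/- pools (-1.04 ± 0.14, adjusted p = 0.00134), and no such fall without Mfn1. Rpl13a, a ribosomal protein gene with pseudogene copies, had a difference of 1.00, with a fall of -0.54 ± 0.10 in Mfn2-/- pools (adjusted p = 0.0082). Birc3, an inhibitor of apoptosis, had a difference of 0.46, which was lost without 10 of the 12 pools (highest adjusted p = 0.108).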

How the results depend on the processing

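Of the 61 named calls, 61 held with DESeq2 size factors, 57 with library size only, 59 with the DESeq2 Wald test, 58 with limma-voom, 45 with the replicate block and 31 against a 1.5-fold threshold (glmTreat), and 35 held without each of the 6 pools in turn. No named call reversed; the value for Mfn1, not called, ranged from -0.10 (adjusted p = 0.862, without Mfn1&2-/- replicate 1) to 0.31 (without replicate 3 of that group). The 512 calls became 943 with the DESeq2 Wald test, 336 with the replicate block, 131 with glmTreat and 240 to 594 without 1 pool. Calls within 20 Mb of Mfn2 (37) became 56 with DESeq2, 12 with glmTreat and 19 to 37 without 1 pool. Calls among list members (42) became 84 with DESeq2, 27 with the replicate block, 12 with glmTreat and 19 to 47 without 1 pool. Calls shared with Mfn2-/- against WT (136) became 239 with DESeq2, 29 with glmTreat and 80 to 159 without 1 pool. The 1196 calls of that comparison became 110 with glmTreat and 512 to 1073 without 1 pool. The 470 called differences became 903 with DESeq2, 276 with the replicate block and 160 to 464 without 1 pool. The causes were not tested. The 19 on or off genes gave 17 to 28 under every alternative run. With library size only, the share of calls that were higher went from 38.3% to 49.2% in Mfn2-/- against WT and from 70.9% to 46.3% for the difference, whose median over all genes moved to -0.12. Same-numbered Mfn1&2-/- and Mfn1-/- pools had correlations of -0.17, -0.09 and -0.04 in their deviations, so no pairing by number showed over all genes together. Pairing for single genes was not tested, nor was the reason that calls were lost under the block. At 3 counts, levels below 0.188 to 0.252 CPM cannot be told from 0.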

Other observations

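Some genes differed widely between pools of 1 genotype. Among genes with at least 10 CPM in the highest pool, a range of over 16-fold within the group was found for 18 genes in WT, 8 in Mfn1-/-, 15 in Mfn2-/- and 12 in Mfn1&2-/- pools. In the Mfn1&2-/- pools, Coro2b measured 135, 1.38 and 1.51 CPM, Pknox2 0, 13.9 and 30.1 CPM and Manba 0.25, 0.26 and 19.4 CPM. Fxyd6, at 3.37, 74.5 and 77.1 CPM, was the one of the 12 called in the comparison. In the Mfn1-/- pools, Agpat9 measured 42.6, 0 and 51.2 CPM. These genes were chosen after their values were seen.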
